A study of Danio rerio with 23 samples.

Results

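RNA-seq libraries of zebrafish embryos that carried the hs:wnt8a transgene were compared with libraries of their wild-type siblings at 7.5 h post fertilization (hpf), across all genes. The comparison used 6 of the 23 libraries of the series: 3 libraries of hs:wnt8a/+ embryos and 3 libraries of genotypically wild-type siblings, and each library listed counts for 31743 genes. Transgenic carriers had been crossed to wild-type fish, and transgenic embryos were picked by fluorescence. Siblings went through the same heat shock (39 °C for 30 min in tubes of 10 embryos, then recovery at 29 °C), so heat is common to both groups and the transgene is not. The titles call the stage 7.5 hpf while the time point field gives 7 hpf, and the labels do not tie these times to the heat shock or to the collection. Embryos came from several mating pairs, and the labels do not say that replicates were separate clutches, so p-values rest on a spread between libraries that could be technical in part. The remaining libraries, 5 of the same cross at 5.5 hpf and 12 of an hs:dkk1b cross, entered the same fit and serve below for comparison with the earlier stage and with a Wnt antagonist.

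Wnt proteins are secreted signals that bind Frizzled receptors with Lrp5 or Lrp6 coreceptors, stabilize beta-catenin and thereby switch on genes through Tcf and Lef proteins. Many of the genes switched on, such as axin2, nkd1 and notum1a, encode inhibitors of the pathway itself. In the zebrafish gastrula wnt8a is expressed at the margin and gives posterior character to the neural plate, while the prospective forebrain and eyes form where Wnt activity is low. A heat-shock promoter is active in tissues throughout the embryo, so the ligand is not limited to its normal domain.

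The transgene was checked first. The identifier ENSDARG00000052910, named wnt8a_1 in the files, had 3647.2, 4217.8 and 3091.9 CPM (counts scaled to a common, TMM-adjusted library size) in hs:wnt8a replicates 1 to 3, against 179.7, 2.33 and 14.8 CPM in sibling replicates 1 to 3. All transgenic libraries were far above all sibling libraries (log2 fold change 5.80 ± 0.93, SE; edgeR adjusted p = 0.0073). Sibling replicate 1 stood out with 4.92% of the transgenic mean, against 0.064% and 0.405% in sibling replicates 2 and 3. In siblings of the hs:dkk1b cross at this stage the gene had 4.97 ± 1.17 CPM (SD, n = 3). Reads of the transgene and of the endogenous gene cannot be told apart in these counts. The other identifier of that name, wnt8a_2 (ENSDARG00000078507), had 12.9 ± 3.41 CPM in hs:wnt8a embryos and 19.7 ± 8.17 CPM in siblings (SD, n = 3 each) and did not pass the test. Neither identifier is counted in any total below.

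The 6 libraries held 16961604 to 20467185 counted reads each and between 23026 and 24067 genes with a count. Replicate 1 of both groups stood apart from the other 4 libraries. On the first principal component, which held most of the variance, hs:wnt8a replicate 1 lay at -45.55 and sibling replicate 1 at -44.92, while the others lay between 13.43 and 27.24. Over 617 genes whose mean in replicates 2 and 3 of either group was at least 2 log2 units from the mean of the 5.5 hpf siblings, in the same direction in both groups, the place of replicate 1 between these levels was computed. In the median, hs:wnt8a replicate 1 stood 77.7% of the way from the earlier level to that of replicates 2 and 3, and sibling replicate 1 stood at 71.9%. Replicate 1 took no part in the choice of these genes, so part of this shortfall can come from the choice. The same measure for replicate 2 or 3 was not made. Deviations from the group means correlated at 0.816 between the replicate 1 libraries of both groups. For replicates 2 and 3 the correlation was 0.385 and 0.684 within the same number, and 0.443 and 0.715 across numbers. Only replicate 1 thus paired clearly by number. Results are given also from a fit that pairs libraries of the same number (the replicate block) wherever that changes a call. As a check of the tissue, 11 of 12 markers of the ectoderm, mesoderm, endoderm, enveloping layer and germ cells of a gastrula had at least 23.05 CPM in all 6 libraries, and mxtx2, a gene of the yolk syncytial layer, had 0.101 to 0.724 CPM.

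Without pairing of libraries, the genes that passed in edgeR all fell, and 10 of the 18 are on the list of forebrain and eye field genes. That list was chosen with earlier results of these data known, so the overlap can be built in to some degree. Of 19502 genes tested, 18 passed an adjusted p of 0.05 in edgeR's quasi-likelihood test, which is 0.0923% of them, and all 18 were lower in hs:wnt8a embryos. No gene passed as higher, although 120 genes were higher and 187 lower at an unadjusted p under 0.05. DESeq2 called 28 genes, 3 of them higher, and limma-trend called 19, with 1 higher. With the replicate block the count was 74 genes (0.379%), 19 higher (0.0974%) and 55 lower (0.282%), and these included all of the 18. Of the 74, 13 are on the forebrain and eye field list. When each library was left out in turn 10 to 16 genes passed, with the lowest count without hs:wnt8a replicate 2, and 11 passed without both libraries of replicate 1. In all 6 of the fits without 1 library 9 of the 18 passed, which were six7, rx3, six3b, nkx2.7, gsc, fzd8a, sox2, hesx1 and otx2a. In a fit of the 6 libraries alone fezf2, six7, rx3, six3b, gsc and fzd8a passed, and the other 12 of the 18 did not. Among those 12 were nkx2.7 (adjusted p = 0.176), sox2 (0.0865), hesx1 (0.289), otx2a (0.43), lhx2b (0.235), pax6b (0.0959) and shisa2a (0.227), each with a log2 fold change close to that of the fit of all libraries. In whole embryos, fewer cells of a type and less RNA per cell cannot be told apart.

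Regulators of the eye field were among the genes that fell furthest. The homeobox gene rx3, which specifies the eye field, had 1.45, 2.32 and 2.33 CPM in hs:wnt8a replicates 1 to 3, against 39.4, 59.3 and 63.8 CPM in sibling replicates 1 to 3. Every transgenic library was thus below every sibling library (26.4-fold lower; log2 fold change -4.72 ± 0.61, adjusted p = 7.28e-04). The LIM homeobox gene lhx2b was close to absent from transgenic libraries, with 4 counts over the 3 hs:wnt8a libraries and 692 counts over the 3 sibling libraries. Its levels were 0.00, 0.0483 and 0.152 CPM in hs:wnt8a replicates and 1.87, 15.3 and 15.5 CPM in sibling replicates, with sibling replicate 1 well below the others (log2 fold change -7.15 ± 1.06, adjusted p = 0.0037, and 0.0524 without hs:wnt8a replicate 2). The gene pax6b, a paired-box regulator of the eye, had 4.89, 5.55 and 11.2 CPM in hs:wnt8a replicates and 38.7, 71.0 and 65.7 CPM in sibling replicates (8.10-fold lower; adjusted p = 0.0111). The call for pax6b was lost without hs:wnt8a replicate 1 (0.111), hs:wnt8a replicate 2 (0.18) or sibling replicate 2 (0.0526). Its paralog pax6a was at 0.905 to 1.83 CPM in hs:wnt8a libraries and 1.22 to 4.33 CPM in sibling libraries, so its groups overlapped and it did not pass (log2 fold change -1.07 ± 0.63).

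Homeobox genes of the six3 family, whose members are needed for forebrain and eye formation, all fell. The gene six7, a relative of six3 found in fish, had 6.39, 3.67 and 4.56 CPM in hs:wnt8a replicates, against 180.3, 232.9 and 232.7 CPM in sibling replicates (44.4-fold lower; log2 fold change -5.47 ± 0.57, adjusted p = 4.89e-05). For six3b the values were 6.81, 6.37 and 4.06 CPM in hs:wnt8a replicates and 59.2, 78.7 and 80.6 CPM in sibling replicates (12.7-fold lower; -3.66 ± 0.27, adjusted p = 5.85e-07). Both genes thus lay in a narrow low range in all transgenic libraries. The third member, six3a, was scarce in either group, at 0.521 ± 0.176 CPM in hs:wnt8a embryos and 2.15 ± 0.350 CPM in siblings (SD, n = 3 each; adjusted p = 0.0229). Its call was lost without hs:wnt8a replicate 2 (0.274) or 3 (0.253) and without sibling replicate 1 (0.0943) or 3 (0.114).

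Forebrain regulators outside that family fell as well, by very different factors. The zinc finger gene fezf2, which specifies forebrain neurons, was at 0.181, 0.628 and 0.659 CPM in hs:wnt8a replicates and 35.2, 57.0 and 56.7 CPM in sibling replicates (97.2-fold lower; log2 fold change -6.60 ± 1.00, adjusted p = 0.00448; 0.0524 without hs:wnt8a replicate 2 and 0.05 without hs:wnt8a replicate 1). The LIM homeobox gene lhx5, which promotes forebrain development in zebrafish, was at 20.3, 8.69 and 7.96 CPM in hs:wnt8a replicates and 58.7, 29.4 and 31.8 CPM in sibling replicates, with replicate 1 the highest of either group (log2 fold change -1.71 ± 0.31, adjusted p = 0.0244). Its call was lost without hs:wnt8a replicate 2 (0.327) or 3 (0.255) and without sibling replicate 1 (0.198). The repressor hesx1 fell 2.23-fold (11.4 ± 1.05 CPM in hs:wnt8a embryos, against 25.3 ± 5.91 CPM in siblings; adjusted p = 7.28e-04, and 0.289 in the fit of the 6 libraries alone). Among the otx homeobox genes, which mark forebrain and midbrain, otx2a fell 2.13-fold, with 40.8, 69.1 and 64.3 CPM in hs:wnt8a replicates and 127.8, 116.1 and 126.7 CPM in sibling replicates (adjusted p = 0.0073; 0.15 without both libraries of replicate 1 and 0.43 in the fit of the 6 libraries alone). For otx1, at 57.8 ± 6.24 CPM in hs:wnt8a embryos and 149.8 ± 20.3 CPM in siblings, the adjusted p was 0.153. It was 2.15e-05 with the replicate block, 0.00455 by DESeq2 and 0.0386 in the fit of the 6 libraries alone. For otx2b, at 56.9 ± 23.6 CPM in hs:wnt8a embryos and 107.8 ± 15.3 CPM in siblings, it was 1.00, and 0.0233 with the block.

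**Figure D1:**
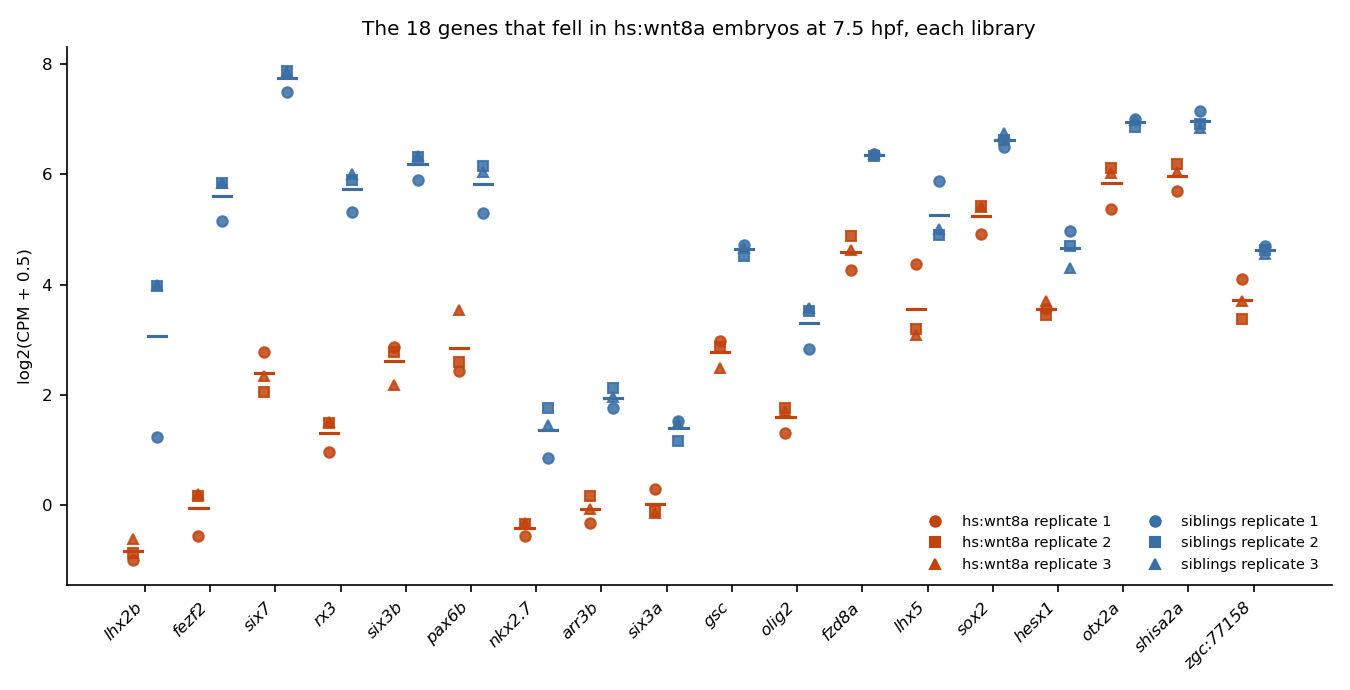
Level of each of the 18 called genes in each library at 7.5 hpf, as log2(CPM + 0.5); marker shapes give the replicate number, hs:wnt8a libraries (orange) stand left of sibling libraries (blue) and the lines are group means. All hs:wnt8a points lie below all sibling points of the same gene; the gap is widest for lhx2b, fezf2, six7 and rx3 and narrowest for genes such as shisa2a and zgc:77158.

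Taking the whole list of forebrain and eye field genes, 10 of the 24 tested members fell and 0 rose, and 13 fell with the replicate block. Over all genes tested 0.0923% fell, and 0.282% with the block. The list was chosen with earlier results of these data known. A further 11 members had too few counts to be tested. The median log2 fold change of the 24 was -1.56, against 0.003 over all genes tested, and 15 of them were lower with no overlap between the groups, as were 2.85% of all genes. Not every member followed: emx2, a telencephalic gene, was at a log2 fold change of 0.56, and rx1, vax1 and barhl2 were at -0.35, -0.58 and -0.63, none of them passing. The summed level of the list's members was 335.5 to 366.1 CPM in hs:wnt8a libraries and 1001.7 to 1130.9 CPM in sibling libraries.

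Receptors and inhibitors of Wnt that belong to the anterior neural plate were also lower. The Frizzled receptor gene fzd8a had 18.8, 28.9 and 24.4 CPM in hs:wnt8a replicates, against 81.9, 80.0 and 82.1 CPM in sibling replicates (3.38-fold lower; log2 fold change -1.76 ± 0.14, adjusted p = 1.23e-06). Its relatives fzd8b (55.8 CPM in hs:wnt8a embryos and 92.2 CPM in siblings on average) and fzd5 (1.02 CPM in hs:wnt8a embryos and 2.22 CPM in siblings) passed with the block alone, with adjusted p of 0.00417 and 0.0323, against 0.606 and 0.286 without it. The gene shisa2a, of a family that retains Frizzled and Fgf receptors inside the cell, fell 1.99-fold, to 62.8 ± 10.7 CPM in hs:wnt8a embryos, against 125.0 ± 14.4 CPM in siblings (SD, n = 3 each; adjusted p = 0.00534, 0.05 without hs:wnt8a replicate 1 and 0.222 without both libraries of replicate 1). Of the 26 tested ligand and receptor genes 1 fell and 0 rose, with a median log2 fold change of -0.019, and with the block 3 fell and 1 rose. At an unadjusted p under 0.05, 4 of the 26 were higher and 3 lower. Among the other receptor genes fzd7a, fzd10, lrp5 and lrp6 had log2 fold changes between -0.07 and 0.31 and did not pass. The receptor gene fzd9b was at 0.47 ± 0.17, with overlapping groups, and did not pass either.

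Differences of direct outputs of the pathway were mostly small. Of 26 tested members of the list of Wnt feedback and target genes, 0 passed without the block by edgeR. At an unadjusted p under 0.05, 3 were higher and 0 lower, and DESeq2 called 1. With the block 2 rose, lef1 and nkd1. The median log2 fold change of the 26 was 0.175, against 0.003 over all genes, and 19 were higher by sign. For 6 of them all transgenic libraries were above all sibling libraries, as for 2.48% of all genes. Lists of other kinds had medians of similar size. The median was 0.206 for the heat-shock chaperones (29 of 32 higher by sign) and 0.118 for maternal transcripts (19 of 24). The share of all genes higher by sign was not computed. The gene lef1, which encodes a transcription factor of the pathway and is itself a target, had 116.1, 136.1 and 123.7 CPM in hs:wnt8a replicates and 89.2, 89.6 and 92.6 CPM in sibling replicates. That is a log2 difference of 0.47 ± 0.15, small but with no overlap (adjusted p = 1.00, and 0.0219 with the block). The gene nkd1, an inhibitor that binds Dishevelled, had 117.8, 92.3 and 89.2 CPM in hs:wnt8a replicates and 59.7, 54.1 and 58.6 CPM in sibling replicates (log2 0.80 ± 0.19, adjusted p = 0.263; 0.0246 with the block and 0.0223 by DESeq2).

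For axin2 and sp5a, known targets of the pathway, the groups overlapped, while for notum1a and dkk1b they did not. For axin2, a scaffold of the complex that degrades beta-catenin, hs:wnt8a replicates 1 to 3 had 287.2, 175.8 and 111.6 CPM and sibling replicates 1 to 3 had 174.2, 93.6 and 121.5 CPM. The transgenic library was above its sibling of the same number in replicates 1 and 2 and below it in replicate 3. Its log2 fold change was 0.56 ± 0.27 (adjusted p = 1.00, and 0.868 with the block), and without hs:wnt8a replicate 1 the value was 0.15. The same pattern held for sp5a, an Sp transcription factor, with 264.4, 123.3 and 84.1 CPM in hs:wnt8a replicates and 135.5, 79.2 and 95.04 CPM in sibling replicates. Its log2 fold change of 0.61 was 0.01 without hs:wnt8a replicate 1. The Wnt deacylase gene notum1a had 57.2, 55.4 and 60.9 CPM in hs:wnt8a replicates and 39.9, 48.3 and 49.4 CPM in sibling replicates, higher without overlap but not past the test (log2 0.33 ± 0.30). The widest difference on the list was that of dkk1b, a secreted antagonist of Lrp5 and Lrp6, at 67.8, 88.3 and 59.8 CPM in hs:wnt8a replicates and 22.5, 15.7 and 25.2 CPM in sibling replicates. Its groups did not overlap, but it did not pass in this fit, which includes the libraries that carry the dkk1b transgene (log2 1.77 ± 0.60, adjusted p = 1.00; 0.155 with the block and 0.0865 in a fit of the 6 libraries alone).

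**Figure D2:**
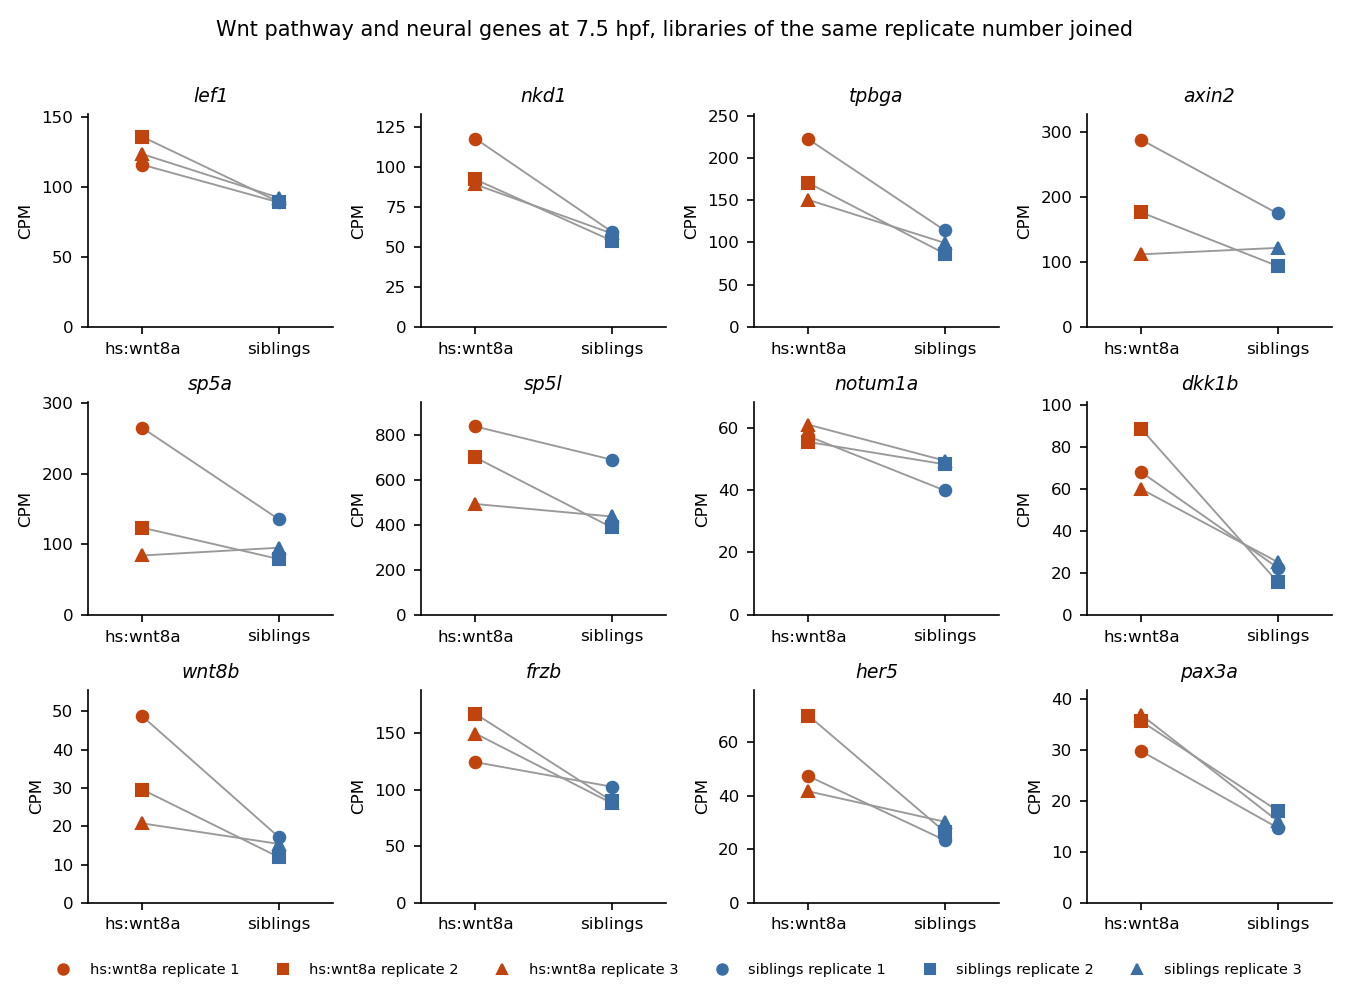
CPM of 12 Wnt pathway and neural genes in each library at 7.5 hpf, with hs:wnt8a libraries (orange) left of sibling libraries (blue) and a line joining libraries of the same replicate number; each axis starts at 0. For lef1, nkd1, tpbga, notum1a, dkk1b, wnt8b, frzb, her5 and pax3a all 3 hs:wnt8a libraries are above all sibling libraries, whereas for axin2, sp5a and sp5l the ranges overlap.

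Other Wnt antagonists were mixed. Of 14 tested, 1 fell (shisa2a) and 0 rose by edgeR, with 3 higher and 1 lower at an unadjusted p under 0.05 and 2 called by DESeq2. With the block 2 rose. Among those was tpbga, which encodes a membrane glycoprotein that inhibits Wnt signalling in zebrafish, with 222.0, 170.2 and 150.3 CPM in hs:wnt8a replicates and 114.4, 86.8 and 99.5 CPM in sibling replicates (log2 0.85 ± 0.17; adjusted p = 0.061, and 0.00856 with the block). It passed also by DESeq2 (adjusted p = 0.00152). The other was frzb, a secreted Frizzled-related protein gene, at 147.3 ± 21.5 CPM in hs:wnt8a embryos and 93.8 ± 7.91 CPM in siblings (SD, n = 3 each; adjusted p = 1.00, and 0.00527 with the block). Among ligands, wnt8b, a neural Wnt gene, was at 48.7, 29.6 and 20.7 CPM in hs:wnt8a replicates and 17.2, 12.0 and 15.4 CPM in sibling replicates (log2 1.15 ± 0.48; adjusted p = 1.00, and 0.0401 with the block). The list of Tcf, beta-catenin and destruction complex genes had 0 calls among 26 tested by edgeR and by DESeq2, with 1 higher and 2 lower at an unadjusted p under 0.05. Its median log2 fold change was -0.005, and its 1 call with the block was lef1.

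Genes of the midbrain and of the midbrain-hindbrain boundary moved in different directions, all of them past the threshold only when libraries were paired. With the block 3 of 23 tested members rose and 2 fell. Without it 0 passed by edgeR and by DESeq2, with 3 higher and 2 lower at an unadjusted p under 0.05. The genes that rose mark the boundary region. The gene her5, a repressor of neurogenesis there, had 47.4, 70.07 and 41.7 CPM in hs:wnt8a replicates and 23.5, 26.6 and 30.4 CPM in sibling replicates (log2 0.98 ± 0.25, adjusted p = 0.475, and 0.0148 with the block). Its relative her11 was at 52.9 ± 8.44 CPM in hs:wnt8a embryos and 28.2 ± 0.899 CPM in siblings (SD, n = 3 each; 0.557, and 0.0040 with the block). The homeobox gene en2a was scarce, at 1.81, 2.61 and 1.67 CPM in hs:wnt8a replicates and 0.354, 0.729 and 0.502 CPM in sibling replicates (1.00, and 0.0209 with the block). The members that fell were dmbx1a and dmbx1b, homeobox genes of the presumptive midbrain and diencephalon. For dmbx1a the levels were 8.70 ± 2.42 CPM in hs:wnt8a embryos and 28.1 ± 9.59 CPM in siblings (1.00, and 1.71e-05 with the block). Only 3 counts of dmbx1b were found over the hs:wnt8a libraries and 63 over the sibling libraries, a sibling to transgenic ratio of 19.9 (95% exact interval 6.51 to 99.2, counting error only). The boundary genes pax2a (-0.27 ± 0.62), irx1b (-0.18 ± 0.20), irx7 (0.13 ± 0.16) and fgf8a (0.09 ± 0.14) had log2 fold changes near 0 and overlapping groups. The sign for pax2a, irx7 and fgf8a changed in fits without single libraries.

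Few genes of the hindbrain and of the posterior body passed. The 25 tested hindbrain genes had a median log2 fold change of 0.012 and 0 calls by edgeR (0 higher and 4 lower at an unadjusted p under 0.05, 1 called by DESeq2). With the block 2 fell, cyp26c1 and fgf3. The retinoic acid degrading enzyme gene cyp26c1 had 0.241, 0.580 and 0.760 CPM in hs:wnt8a replicates and 2.94, 5.35 and 4.29 CPM in sibling replicates (log2 fold change -2.95 ± 0.63; adjusted p = 0.135; 5.05e-05 with the block and 0.00152 by DESeq2). The early hindbrain gene hoxb1b was at 154.6, 116.1 and 97.6 CPM in hs:wnt8a replicates and 115.6, 91.6 and 109.6 CPM in sibling replicates, with overlap. Of the 24 tested caudal and posterior Hox genes 0 passed with or without the block, by DESeq2 or at an unadjusted p under 0.05, and their median was -0.014. The caudal gene cdx4, which is itself controlled by Wnt, had a log2 fold change of 0.18 ± 0.21. The 32 tested paraxial and tailbud mesoderm genes likewise had 0 in each of these counts and a median of 0.087. The log2 fold changes of tbxta (Brachyury), tbx16 and msgn1 were 0.17 ± 0.31, 0.18 ± 0.24 and -0.05 ± 0.15, and the sign for tbxta and msgn1 changed in a fit without 1 library.

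One organizer gene of the head region was among those that fell. The homeobox gene gsc, a marker of the prechordal plate, had 7.42, 6.81 and 5.12 CPM in hs:wnt8a replicates, against 26.0, 22.5 and 24.8 CPM in sibling replicates (3.79-fold lower; log2 fold change -1.92 ± 0.28, adjusted p = 0.00279). By contrast noto, a notochord gene, was at 42.8, 52.4 and 32.9 CPM in hs:wnt8a replicates and 37.7, 31.8 and 41.0 CPM in sibling replicates, with overlapping groups (0.21 ± 0.19). A test between the genes was not made. The Bmp antagonist gene chrd was at 862.0, 489.5 and 423.3 CPM in hs:wnt8a replicates and 691.9, 310.9 and 312.0 CPM in sibling replicates, higher in each pair but not past the test (0.43 ± 0.28; adjusted p = 1.00, and 0.087 with the block). The Bmp antagonist gene nog1 rose with the block alone, at 34.1 ± 5.62 CPM in hs:wnt8a embryos and 23.4 ± 2.63 CPM in siblings (0.98, and 0.0233 with the block). Of the 24 tested members of the organizer and axial mesoderm list 3 fell (six3b, gsc and otx2a) and 0 rose, and the median was 0.138. Over all genes tested 0.0923% fell. Of the called members six3b and otx2a are also on the forebrain and eye field list. At an unadjusted p under 0.05, 2 were higher and 5 lower, and with the block 2 rose and 3 fell. Without overlap 4 were higher and 6 lower, as were 2.48% and 2.85% of all genes. The 31 Bmp and ventral genes had 0 calls by edgeR, with or without the block, and by DESeq2, 1 lower at an unadjusted p under 0.05 and a median of -0.082.

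Among early neural genes 1 member passed the test. The SoxB1 gene sox2 fell 2.58-fold, to 29.6, 42.8 and 41.8 CPM in hs:wnt8a replicates, against 89.6, 98.1 and 106.7 CPM in sibling replicates (log2 fold change -1.36 ± 0.17, adjusted p = 7.28e-04, and 0.0865 in the fit of the 6 libraries alone). Its relative sox3 was at 94.4 to 151.5 CPM in hs:wnt8a libraries and 122.0 to 161.7 CPM in sibling libraries, with overlap. Of 34 tested SoxB1 and pan-neural genes 1 fell and 0 rose, with a median of -0.044. At an unadjusted p under 0.05, 1 was higher and 6 were lower, DESeq2 called 3, and with the block 5 fell. Among these was zic1, a zinc finger gene of the anterior neural plate, with 15.9, 15.4 and 13.6 CPM in hs:wnt8a replicates and 44.6, 54.2 and 59.3 CPM in sibling replicates (adjusted p = 0.296; 5.05e-05 with the block, 0.0179 by DESeq2 and 0.0117 in the fit of the 6 libraries alone). The Zic genes zic2a (-0.09 ± 0.15) and zic2b (0.17 ± 0.12) had log2 fold changes near 0, with a change of sign for zic2a without sibling replicate 3. At the border of the neural plate 0 of 32 tested genes passed by edgeR or DESeq2 (2 higher and 2 lower at an unadjusted p under 0.05; median -0.010). With the block pax3a rose and six4b fell. The gene pax3a, a paired-box gene of its posterior part, was at 29.7, 35.6 and 36.9 CPM in hs:wnt8a replicates and 14.7, 18.1 and 16.1 CPM in sibling replicates (log2 1.06 ± 0.44; adjusted p = 1.00, and 8.82e-04 with the block). The placode gene six4b was at 15.9 ± 0.883 CPM in hs:wnt8a embryos and 31.4 ± 2.85 CPM in siblings (1.00, and 0.00171 with the block).

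The called genes not yet described are a mixed group. The homeobox gene nkx2.7, known from endoderm and heart, was at 0.258 ± 0.0674 CPM in hs:wnt8a embryos and 2.16 ± 0.803 CPM in siblings (8.05-fold lower; adjusted p = 0.00191, and 0.176 in the fit of the 6 libraries alone). The bHLH gene olig2, known from motor neuron and oligodendrocyte precursors, was at 2.56 ± 0.495 CPM in hs:wnt8a embryos and 9.68 ± 2.64 CPM in siblings (adjusted p = 0.0326); it passed in 1 of the 6 fits without a library, with adjusted p up to 0.256. The arrestin gene arr3b was at 0.462 ± 0.163 CPM in hs:wnt8a embryos and 3.38 ± 0.501 CPM in siblings (adjusted p = 0.0111). The gene zgc:77158 was at 13.0 ± 3.35 CPM in hs:wnt8a embryos and 24.4 ± 1.26 CPM in siblings (0.0244). Both arr3b and zgc:77158 were named after their values were seen. Without single libraries arr3b passed in 2 of 6 fits (highest adjusted p = 0.121) and zgc:77158 in 1 of 6 (highest 0.282). Among the 19 genes that rose with the block, prrx1b, a paired-related homeobox gene, had the largest log2 fold change (2.38 ± 0.51), at 3.20 ± 0.783 CPM in hs:wnt8a embryos and 0.608 ± 0.139 CPM in siblings (SD, n = 3 each; adjusted p = 0.135, and 0.0148 with the block). It passed also by DESeq2 (0.00804) and limma-trend (0.0484).

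**Figure D3:**
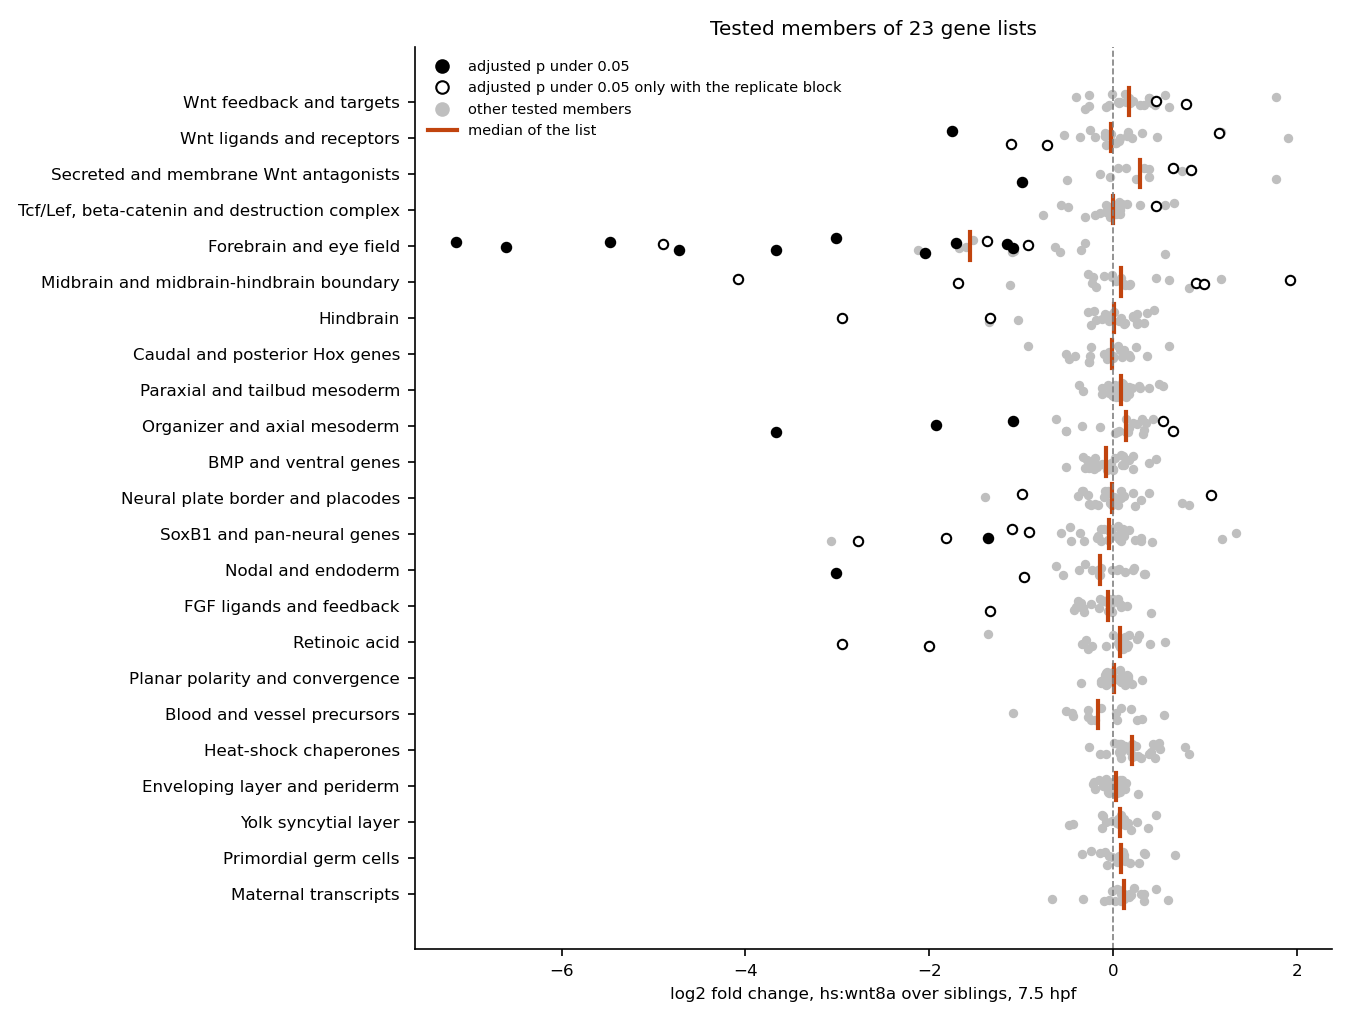
Fitted log2 fold change (hs:wnt8a over siblings, 7.5 hpf) of each tested member of 23 gene lists; black points passed an adjusted p of 0.05, open points passed in edgeR with the replicate block and not without it, and orange bars are list medians. The forebrain and eye field list is the one whose median (-1.56) lies far from the all-gene median of 0.003 (dashed line).

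Lists that stand for heat, the enveloping and yolk syncytial layers, germ cells, blood and vessel precursors and maternal RNA held no called gene. The endoderm list held 1. The heat-shock chaperones, of which 32 were tested, had 0 calls by edgeR with or without the block, by DESeq2 and at an unadjusted p under 0.05. Of the 32, 29 were higher by sign, with a median log2 fold change of 0.206, against 0.003 over all genes and 0.175 for the Wnt feedback and target list. In all 3 pairs of the same number 11 were higher and 1 was lower, against 13.0% and 13.2% of all genes. The list was thus shifted upward although no member passed, and the cause was not tested. The summed level of the chaperones was 50410, 49851 and 35060 CPM in hs:wnt8a replicates 1 to 3 and 50652, 31619 and 34787 CPM in sibling replicates 1 to 3. In this sum only the replicate 2 libraries were far apart. For hsp70l, a heat-induced chaperone gene, the values were 296.0, 542.6 and 226.2 CPM in hs:wnt8a replicates and 239.1, 155.7 and 206.8 CPM in sibling replicates. The medians for the enveloping layer, the yolk syncytial layer, germ cells, blood and vessel precursors and maternal transcripts were 0.029, 0.080, 0.085, -0.163 and 0.118, each with 0 calls by edgeR and DESeq2 and at most 1 member at an unadjusted p under 0.05. The Nodal and endoderm list had 1 gene that fell (nkx2.7) among 19, with a median of -0.146 (0 higher and 3 lower at an unadjusted p under 0.05, 1 by DESeq2). With the block 2 fell, nkx2.7 and tdgf1. The gene tdgf1 had 83.4, 41.0 and 34.3 CPM in hs:wnt8a replicates and 155.0, 78.1 and 77.3 CPM in sibling replicates. Its groups overlapped, and it passed with the block alone (adjusted p = 2.71e-06). The Fgf list had 0 calls among 29 (0 higher and 4 lower at an unadjusted p under 0.05, 0 by DESeq2), with fgf3 lower with the block. The retinoic acid list had 0 calls among 25 by edgeR (1 higher and 2 lower at an unadjusted p under 0.05, 1 by DESeq2) and a median of 0.076. With the block its members cyp26c1 and nr2f5 fell. The planar polarity list had 0 calls among 26 by edgeR, with or without the block, and by DESeq2 (1 higher at an unadjusted p under 0.05) and a median of 0.015.

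The effect at 7.5 hpf was set against that of the same transgene at 5.5 hpf by a test of the difference between the effects. The level of wnt8a_1 at the earlier stage was 3447.1 and 2664.0 CPM in the 2 hs:wnt8a libraries, and the 3 sibling libraries at 5.5 hpf held 12.8% to 23.6% of the transgenic mean. That is 567.1 ± 165.9 CPM (SD, n = 3), against 6.08 ± 1.36 CPM in siblings of the hs:dkk1b cross at 5.5 hpf (SD, n = 3). Transgenic embryos among the siblings, carried-over RNA and endogenous wnt8a cannot be told apart here, and their part in the effects at 5.5 hpf and in the differences between stages was not tested. For six3b, the gene that passed (1 of 19502, 0.00513%; 339 at an unadjusted p under 0.05), hs:wnt8a embryos had 4.53 and 5.24 CPM at 5.5 hpf and siblings had 8.87, 7.86 and 7.45 CPM. Sibling levels were thus about an order of magnitude higher at the later stage, while transgenic levels stayed below 7 CPM. The difference between the effects was -2.94 ± 0.40 on the log2 scale (adjusted p = 0.00946). The call was lost without 5.5 hpf sibling replicate 3 (0.0589), 5.5 hpf hs:wnt8a replicate 1 (0.0689) or 5.5 hpf hs:wnt8a replicate 2 (0.22), with values between -3.05 and -2.83.

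With the block 19 genes differed between the stages (0.0974%), 10 with a lower (0.0513%) and 9 with a higher (0.0461%) log2 fold change at 7.5 hpf. At 5.5 hpf sibling replicate 3 has no hs:wnt8a library of its number, so the blocked effect there rests on 2 pairs. Whether libraries pair by number at 5.5 hpf was not checked. Besides six3b the genes with a lower value included six7, gsc, sox2 and fzd8a. Among the genes with a higher value, levels in 5.5 hpf siblings ran from 0.771 to 78.4 CPM for slc6a16a and 0.0678 to 35.2 CPM for odf3l2a. They ran from 0.129 to 10.2 CPM for CR339054.1 and 0.0643 to 2.32 CPM for CU638714.1. Ranges were narrower for her3 (35.8 to 41.0 CPM) and pkdccb (97.8 to 137.0 CPM). The level of six7 was 6.97 ± 0.404 CPM in hs:wnt8a embryos (n = 2) and 15.7 ± 5.89 CPM in siblings (n = 3) at 5.5 hpf, against 4.87 ± 1.39 CPM in hs:wnt8a embryos and 215.3 ± 30.3 CPM in siblings at 7.5 hpf (difference of effects with the block -4.13 ± 0.30, adjusted p = 2.75e-05; 0.142 without it). The sox2 level at 5.5 hpf was 96.3 CPM in hs:wnt8a embryos and 110.9 CPM in siblings on average, against 38.1 CPM in hs:wnt8a embryos and 98.1 CPM in siblings at 7.5 hpf (adjusted p of the difference 0.0072 with the block, and 0.674 without it). For fzd8a the log2 fold change was -0.60 ± 0.16 at 5.5 hpf and -1.76 ± 0.14 at 7.5 hpf (adjusted p of the difference 0.142, and 0.0467 with the block). No gene passed at 5.5 hpf alone by edgeR, where 648 genes had an unadjusted p under 0.05, and 15 of the 18 genes called at 7.5 hpf were lower by sign there.

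**Figure D4:**
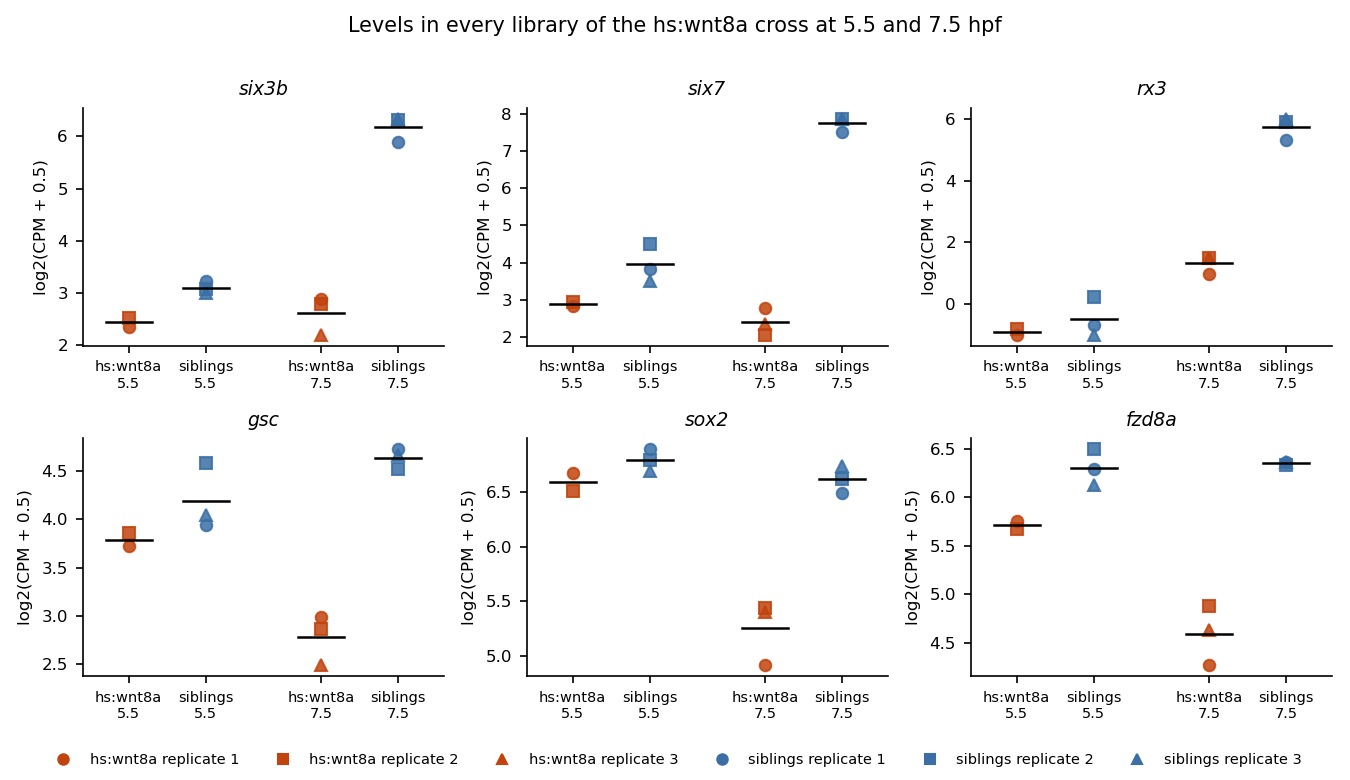
Level in every library of the hs:wnt8a cross, as log2(CPM + 0.5), for 6 of the called genes at 5.5 and 7.5 hpf; hs:wnt8a (orange) stands left of siblings (blue) at each stage, marker shapes give the replicate number and bars are group means. For six3b, six7 and rx3 sibling levels are high at 7.5 hpf and transgenic levels low, while for sox2 and fzd8a transgenic levels are lower at 7.5 hpf than at 5.5 hpf. The transgenic level of rx3 is 0.00 to 0.0672 CPM at 5.5 hpf and 1.45 to 2.33 CPM at 7.5 hpf.

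The hs:dkk1b line, which makes a Wnt antagonist after heat shock, gives the opposite manipulation at the same stage. Its heat shock was 37 °C for 60 min, and no library is shared between the comparisons. Effects of the transgenes, each against its own siblings, differed for 40 genes (0.205%). The log2 fold change in hs:wnt8a was the higher one for 22 (0.113%) and the lower one for 18 (0.0923%), and 246 genes differed with the block. Of the 40, 17 were called in hs:wnt8a alone, 22 in hs:dkk1b alone, 0 in both and 1, sox21a, in neither. The gene sox21a was named after its values were seen. The 17 are the 18 genes above apart from olig2 (adjusted p of the difference 0.0592). In hs:dkk1b embryos all 18 had a positive log2 fold change, between 0.20 for arr3b and 1.24 for nkx2.7, and none of the 18 passed there.

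Known Wnt targets such as sp5a and axin2 were on the other side of this comparison, together with genes that are not on the target list. The log2 fold change of sp5a was 0.61 ± 0.34 in hs:wnt8a and -2.98 ± 0.37 in hs:dkk1b embryos (difference 3.58 ± 0.50, adjusted p = 9.65e-04). For axin2 the values were 0.56 ± 0.27 in hs:wnt8a and -2.42 ± 0.29 in hs:dkk1b embryos (difference 2.99 ± 0.39, adjusted p = 4.68e-04), and for tpbga 0.85 ± 0.17 in hs:wnt8a and -1.60 ± 0.17 in hs:dkk1b embryos (2.45 ± 0.24, adjusted p = 1.86e-05). The largest positive differences were those of prrx1b and en2a, at 6.33 ± 0.88 and 6.24 ± 0.99. Both genes were near absence in hs:dkk1b embryos, so the size of these differences rests on few reads. Mean levels were 0.060 CPM for prrx1b and 0.099 CPM for en2a, against 1.03 and 2.11 CPM in hs:dkk1b siblings. Over the feedback and target list the median was 0.175 in hs:wnt8a and -1.148 in hs:dkk1b embryos, while over the forebrain and eye field list it was -1.56 in hs:wnt8a and 0.435 in hs:dkk1b embryos. Both lists were chosen with earlier results of these data known, so the contrast of these medians can be built in to some degree. Of the 29 genes that fell in hs:dkk1b embryos 28 had a positive log2 fold change in hs:wnt8a embryos, from 0.06 for notum1b to 2.38 for prrx1b. Several of these were near 0, such as fzd10 (0.07) and blf (0.12). The sign for notum1b, irx7, tbxta and msx1b changed in fits without libraries. The share of all genes with a positive value was not computed. With the block 8 of the 30 genes called in hs:dkk1b passed in hs:wnt8a. The gene dkk1b itself, which is the transgene of that line, had a difference of -5.97 ± 0.87.

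**Figure D5:**
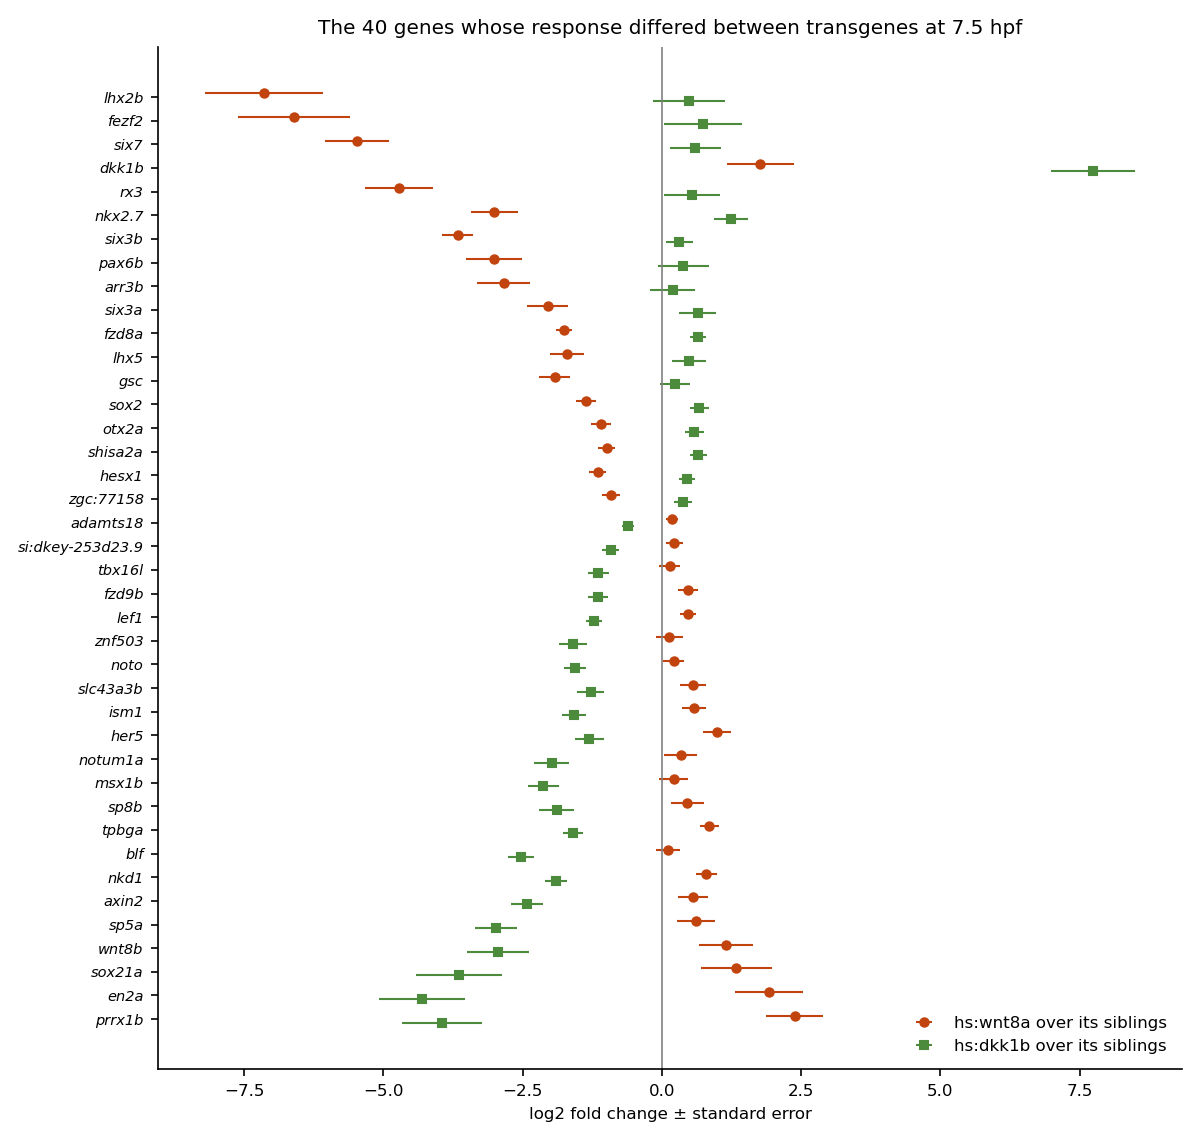
Log2 fold change with its standard error at 7.5 hpf for the 40 genes whose response differed between the transgenes, ordered by the difference; orange circles are hs:wnt8a over its siblings and green squares hs:dkk1b over its siblings. Forebrain genes at the top lie below 0 in hs:wnt8a and slightly above 0 in hs:dkk1b (the transgene dkk1b itself lies at 7.74 in hs:dkk1b). Genes at the bottom, Wnt targets among them, lie below 0 in hs:dkk1b and above 0, several only slightly, in hs:wnt8a.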

How the data were processed

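The deposited files list, for each library, counts per gene that the authors did not normalise, and TPM made by the authors (corrected for gene length); the counts were tested and TPM values were not used in the text. The submitters' processing notes name the genome build GRCz11 and edgeR; for the aligner, counter and strand setting the sources used here give nothing. Counts were scaled by TMM and tested with edgeR 4.0.16 (quasi-likelihood, all 23 libraries, filterByExpr, Benjamini-Hochberg adjusted p under 0.05; 19502 genes). Alternatives were DESeq2 1.42.0, limma-trend 3.58.1, other size factors, no filter, a fit of the 6 libraries, fits without single libraries and, chosen once the data had been seen, a fit that drops replicate 1 of both groups. Deviations from group means of same-numbered libraries correlated at 0.816, 0.385 and 0.684 over 15157 genes, so replicate numbers were also fitted as a block (cross by time by number). The pairing comes from these correlations and not from the labels, and replicates 2 and 3 also correlated across numbers (0.715 and 0.443). The correlations were computed for the hs:wnt8a cross at 7.5 hpf alone, while the block was applied to all libraries. CPM values are scaled to TMM-adjusted library sizes. The test recovered 92 of 100 genes simulated with a log2 change of 2, and 60 of 100 with a change of 1, in data simulated for the comparison at 7.5 hpf. The changed genes were taken from well-counted ones, and the simulated libraries were independent, without a shared shift of replicate 1. The gene lists, the comparisons and the genes to be named were chosen with earlier results of these data known. Named were up to 12 rises and 12 falls with no overlap and a mean log2 CPM of at least 1, up to 4 called members per list, up to 5 genes per difference of effects and a set of marker genes; after seeing the data the rule was applied also to the blocked fit, and a few further list members are given with their values. Promoter sequences were not used here.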

Additional observations from a re-analysis of the deposited data

Results flagged for a closer look

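For six3b the effect of hs:wnt8a differed between the stages by a test of the difference itself: the log2 fold change was -3.66 ± 0.27 at 7.5 hpf and -0.72 ± 0.31 at 5.5 hpf, a difference of -2.94 ± 0.40 (edgeR adjusted p = 0.00946, and 0.0014 with the replicate block). The 3 hs:wnt8a libraries at 7.5 hpf and the 2 at 5.5 hpf were below all siblings of their stage. The call was lost without 5.5 hpf sibling replicate 3 (edgeR adjusted p = 0.0589). Fits that leave 1 hs:wnt8a library at 5.5 hpf gave differences of -3.05 and -2.835. The 5.5 hpf siblings held 12.8% to 23.6% of the transgenic mean of wnt8a_1, and the part of this in the difference between stages was not tested.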

How the results depend on the processing

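The count of 18 genes at 7.5 hpf was the same with other size factors and without the filter on low counts. It was 28 with DESeq2, 74 with the replicate block, 9 in a fit of the 6 libraries alone (6 of them shared), 11 without both libraries of replicate 1, and 10 to 16 without single libraries. For the difference between stages it was 4 with DESeq2, 19 with the replicate block and 0 to 2 without single libraries, against 1. For the difference between transgenes it was 74 with DESeq2, 246 with the replicate block and 29 to 47 without single libraries, against 40. Of 88 named genes the block moved 32 past the threshold and changed no other call. The rule also named genes because they passed with the block, so this count is in part set by the rule. Sign changes occurred in 16 of the 88, none called in either fit. With limma-trend odf3l2a was at 0.014 and gbx2 at -0.037. Without libraries the log2 fold change ran from -0.0502 to 0.195 for cdx1a, -0.0613 to 0.225 for fgf8a, -0.149 to 0.542 for gbx1, -0.717 to 0.517 for gbx2, -0.361 to 0.214 for hoxb1a, -0.0247 to 0.335 for irx7, -0.192 to 0.0014 for msgn1, -0.078 to 0.446 for msx1b, -0.369 to 0.33 for notum1b, -3.97 to 3.97 for odf3l2a, -0.951 to 0.0319 for pax2a, -0.147 to 0.494 for tbxta, -0.304 to 0.493 for tbxtb, -0.401 to 0.36 for vent, -0.26 to 0.294 for vox and -0.212 to 0.0491 for zic2a. Without both libraries of replicate 1 they were 0.0706 for odf3l2a, 0.059 for vox, -0.0963 for notum1b, -0.401 for vent, -0.364 for gbx2 and -0.0117 for irx7. The cause was not tested. In simulated data of this design 60 of 100 well-counted genes with a log2 change of 1 were recovered, so a gene that missed the threshold may still differ. Recovery of scarce genes was not measured.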

Other observations

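Over the genes chosen by replicates 2 and 3, replicate 1 of both groups lay in the median nearer the 5.5 hpf siblings than those replicates did. The gene odf3l2a also set replicate 1 apart. It had 20.6 CPM in hs:wnt8a replicate 1 and 0.435 and 0.507 CPM in hs:wnt8a replicates 2 and 3. Sibling replicate 1 had 21.7 CPM, and sibling replicates 2 and 3 had 0.486 and 0.411 CPM. At 5.5 hpf the gene had 0.134 and 0.139 CPM in the hs:wnt8a libraries and 0.0678 to 35.2 CPM in siblings. Its high level in replicate 1 is thus not a common level of the earlier stage. The 617 genes were chosen because replicates 2 and 3 lay at least 2 log2 units from the 5.5 hpf siblings. Of these genes, 83.8% were short of the later level in hs:wnt8a replicate 1 and 90.1% in sibling replicate 1. A library left out of the choice can fall short through the choice alone, and no such share was computed for replicate 2 or 3.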
